A study of Mus musculus with 9 samples.

Results

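Laminins and the proteins that bind them in basement membranes are described here through 10 genes: the laminin chains Lama2, Lama4, Lama5, Lamb1, Lamb2 and Lamc1, the nidogens Nid1 and Nid2, perlecan (Hspg2) and SPARC (Sparc). They were chosen by gene symbol, with collagens left out, and all 10 were found among the 19094 genes listed in at least 1 of the 9 samples. The samples are cultures of 3T3-L1, a mouse fibroblast-like cell line that can be made to differentiate into lipid-storing adipocytes, with RNA sequenced from 3 replicates each of day 0, day 4 and day 8. Day 0 cells had not yet received the adipogenic inducers, whereas day 4 and day 8 cells had first been kept in induction medium with dexamethasone, the phosphodiesterase inhibitor IBMX and insulin, and then in maintenance medium with insulin. All groups are the same line in culture, a model without the other cells of fat tissue, each sample was a mixture of RNA according to the study's methods, and nothing states that replicates came from separate cultures, so that p-values measure only the spread between these samples, which may be technical. The comparisons were day 4 with day 0 (early phase), day 8 with day 4 (late phase) and day 8 with day 0 (whole process), and each pair of these comparisons shares the 3 samples of a day.

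Basement membranes are thin sheets of matrix that surround each adipocyte and underlie epithelia and vessels. A laminin is a secreted trimer of an α, a β and a γ chain, and laminins polymerize at the cell surface, where integrins and dystroglycan hold them. Type IV collagen forms another network, nidogens and the heparan sulphate proteoglycan perlecan connect the networks, and SPARC is a collagen-binding protein that mature fat secretes and that modulates matrix assembly.

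The depth was 20445783, 18216114 and 20452144 expected counts in day 0 replicates 1, 2 and 3. It was 20182731, 20402862 and 19681622 at day 4, and 20146876, 20205942 and 19898142 at day 8. Levels are given in FPKM, which is scaled to gene length and depth, so that different genes can be set side by side. The 10 genes had between 21 expected counts (Lama2, day 0) and 84599 (Sparc, day 8) per sample, all above the floor of 3 counts, and the smallest of them are the least precise. The label of the line was compared with marker genes before the results. The summed FPKM of 10 adipocyte markers was 145.6 ± 2.93 (SD, n = 3) at day 0, 6978.0 ± 1224.7 at day 4 and 8857.1 ± 409.4 at day 8, with Fabp4, a fatty acid binding protein, the most abundant of them at both later days. Leptin (Lep) was listed at 0 in all 3 day 0 samples and did not exceed 0.98 FPKM later. Preadipocyte and fibroblast markers, led by vimentin (Vim) or Col1a2, summed to 8022.8 ± 182.7, 6154.2 ± 273.5 and 7650.1 ± 139.2 FPKM. Single genes of this list took different courses, with Dlk1 at 827.6, 180.8 and 415.3 FPKM and Ly6a at 166.7, 42.7 and 38.8 FPKM. Pdgfra measured 59.6, 102.1 and 65.7 FPKM, and Col1a2 1834.5, 1475.8 and 2511.8 FPKM. The extraction text of the labels mentions dorsal root ganglia, the sensory ganglia beside the spinal cord, which does not describe a cell line. Sensory neuron markers summed to 0.777, 1.45 and 1.59 FPKM by day, and the Schwann cell regulator Sox10 did not exceed 0.04 FPKM in any sample. The Schwann cell list summed to 137.3, 169.2 and 172.0 FPKM, of which 128.1, 159.2 and 163.0 FPKM were the myelin gene Pmp22. Endothelial markers, whose cells deposit much laminin in tissue, summed to 1.47, 1.33 and 1.65 FPKM, led by Egfl7, and macrophage markers to 7.91, 5.32 and 5.50 FPKM, led by Cd14. Pericyte and smooth muscle markers summed to 383.5, 118.1 and 195.4 FPKM, of which Acta2, which fibroblasts also express, was 300.9, 47.5 and 79.4 FPKM. Other genes of that list went differently, with Mcam at 0.570, 16.3 and 18.6 FPKM, Des at 3.74, 4.51 and 8.23 FPKM and Pdgfrb at 76.9, 48.1 and 86.0 FPKM. In bulk RNA, fewer cells of a type and less RNA per cell cannot be told apart, here between differentiated and undifferentiated cells.

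The β1 and β2 chain genes moved in opposite directions, perlecan was lower after induction and SPARC was the most abundant gene, and the stretches in front of these 4 genes are printed so that their different make-up can be seen beside their levels. Matching by NCBI gene ID found 7 of the 10 genes in the set of RefSeq promoters for build GRCm38.p6 used here. Lama4, Lamc1 and Nid2 were not found in that set. The printed sequences run from 250 bases before to 50 bases after the annotated start. They lie at chr12:31265043-31265342 on the plus strand (Lamb1), chr9:108479612-108479911 on the plus strand (Lamb2), chr4:137468553-137468852 on the plus strand (Hspg2) and chr11:55420031-55420330 on the minus strand (Sparc). Capitals mark the GC box GGGCGG or its reverse complement CCGCCC.
Lamb1: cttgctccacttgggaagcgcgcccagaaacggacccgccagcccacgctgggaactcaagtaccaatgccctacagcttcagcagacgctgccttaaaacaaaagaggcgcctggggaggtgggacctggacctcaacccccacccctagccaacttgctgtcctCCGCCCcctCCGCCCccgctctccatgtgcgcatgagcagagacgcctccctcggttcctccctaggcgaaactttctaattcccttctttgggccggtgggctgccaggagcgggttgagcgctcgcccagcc
Lamb2: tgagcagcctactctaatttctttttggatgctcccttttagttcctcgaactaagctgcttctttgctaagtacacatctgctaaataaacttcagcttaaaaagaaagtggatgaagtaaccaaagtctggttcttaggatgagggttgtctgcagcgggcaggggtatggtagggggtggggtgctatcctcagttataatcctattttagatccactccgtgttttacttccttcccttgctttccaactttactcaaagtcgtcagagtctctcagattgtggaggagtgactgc
Hspg2: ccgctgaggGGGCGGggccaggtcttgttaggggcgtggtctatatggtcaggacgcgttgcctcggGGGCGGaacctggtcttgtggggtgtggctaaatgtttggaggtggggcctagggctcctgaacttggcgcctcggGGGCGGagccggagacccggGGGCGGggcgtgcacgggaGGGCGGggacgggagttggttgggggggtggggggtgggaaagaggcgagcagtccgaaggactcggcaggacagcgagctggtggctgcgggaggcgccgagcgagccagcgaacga
Sparc: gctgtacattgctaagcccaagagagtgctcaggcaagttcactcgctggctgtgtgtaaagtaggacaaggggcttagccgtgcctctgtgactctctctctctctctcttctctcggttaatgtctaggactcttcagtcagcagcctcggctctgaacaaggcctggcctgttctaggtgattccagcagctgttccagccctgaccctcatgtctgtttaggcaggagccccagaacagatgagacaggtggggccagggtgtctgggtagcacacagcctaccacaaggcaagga
The Lamb1 stretch held 2 GC boxes at a GC content of 63.7%, and that of Hspg2 held 5 at 70.3%. Lamb2 had 0 GC boxes at a GC content of 44.0%, below the median of 52.7% over 32851 promoters, and Sparc had 0 at 55.3%. Among the other genes, Lama5 held 4 GC boxes and Lama2 and Nid1 held 1 each, so that 5 of the 7 had the motif, beside 35.7% of all promoters. TGTTCT, a core element of glucocorticoid receptor sites, searched on either strand, matched in Sparc, with 2 matches, and in Lama2, with 1, beside 19.0% of all promoters. The C/EBP-type letters TTGCNNAA matched in Nid1 alone of the 7 (10.8% of all promoters), and the AP-1 letters TGANTCA (7.81%) and the TATA box TATAAA (13.6%) matched in 0 of the 7. These matches describe letters in a window and not bound sites.

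Over the whole process 3 of the 10 genes rose and 1 fell. The α2 chain gene Lama2, Nid2 and Sparc rose, the β2 chain gene Lamb2 fell, and the other 6 stayed within a 2-fold difference. Genes are said to have risen or fallen only where edgeR's quasi-likelihood test gave an adjusted p under 0.05 and the difference exceeded 2-fold, and are called higher or lower where the adjusted p alone passed. Among all 13154 genes tested, 10.3% rose and 7.70% fell by the same rule. By adjusted p alone 7 of the 10 were higher at day 8, with 34.8% of all genes, and 3 were lower, with 36.2%. The median log2 fold change of the 10 genes was 0.64, and that of all genes tested was -0.02.

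In the early phase 2 of the 10 genes, Lama2 and Nid2, rose and 0 fell with edgeR, beside 9.77% and 7.98% of all genes. DESeq2 also gave 0 falls and limma on log2(FPKM + 0.1) gave 1, Lamb2. A further 4 were higher by adjusted p alone (6 in all, with 35.5% of all genes), namely Lamb1, Lamc1, Nid1 and Sparc, and 3 were lower (33.7% of all genes), namely Lama5, Lamb2 and Hspg2. In the late phase Nid2 alone rose and 0 fell with edgeR and DESeq2, beside 4.24% and 2.81% of all genes with edgeR. Both limma fits gave 0 rises and 0 falls. By adjusted p alone 5 were higher (22.5% of all genes), namely Lama2, Lama4, Lamb1, Nid2 and Sparc, and 0 were lower (22.7% of all genes), or 1, Lamb2, at an unadjusted p under 0.05 (26.3% of all genes). The median log2 fold change of the 10 genes was 0.33 early and 0.21 late, beside 0.02 and -0.01 for all genes.

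**Figure D1:**
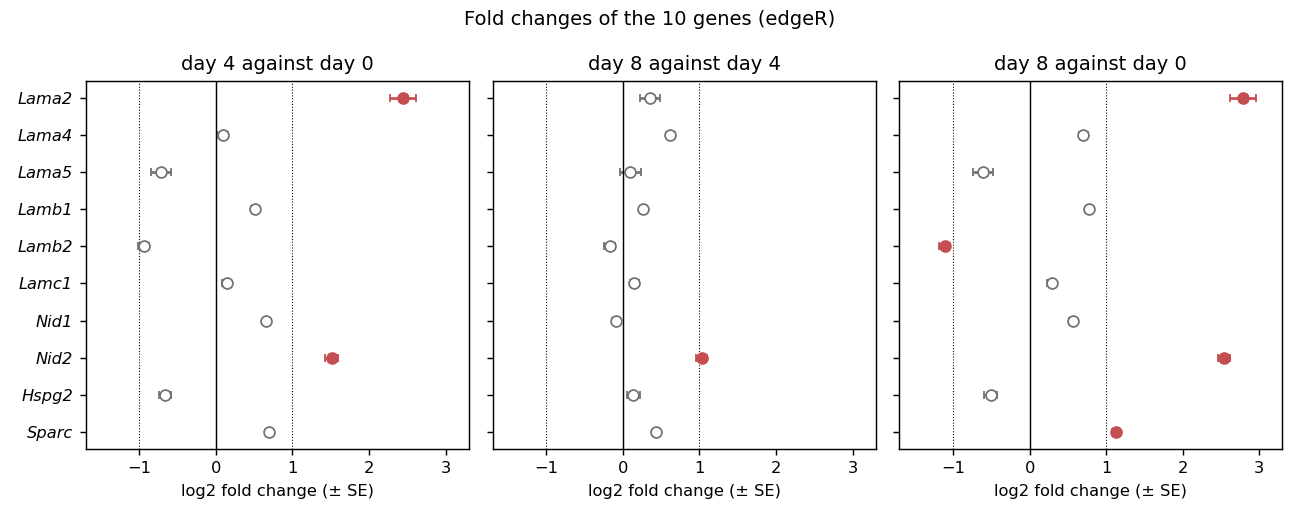
Log2 fold change (horizontal axis) of each of the 10 genes in the 3 comparisons, from edgeR, with bars of ± SE and dotted lines at a 2-fold difference either way; filled red points mark genes that passed both thresholds and open points those that did not. Nid2 lies to the right of the 2-fold line in all 3 panels, and Lamb2 lies to the left of it over the whole process only.

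The α chain decides which receptors a laminin binds. Lama4, whose product is the α4 chain made by fat cells and vessels, was the most abundant α transcript on every day and was higher at day 8 than at day 4. Lama2, which encodes the α2 chain best known from muscle and peripheral nerve, rose from a very low level, and Lama5, which encodes the widespread α5 chain of epithelia and vessels, was lower after induction.

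Lama4 (NCBI gene 16775) measured 51.66, 45.70 and 51.36 FPKM at day 0, 54.55, 49.46 and 46.87 FPKM at day 4, and 71.47, 74.98 and 77.59 FPKM at day 8. The ranges of day 0 and day 4 overlapped, and every day 8 sample lay above both. In the late phase the log2 fold change was 0.62 (SE 0.06, edgeR adjusted p = 1.1e-06) and over the whole process 0.70 (SE 0.06, edgeR adjusted p = 6.8e-08), a 1.63-fold difference. Early it was 0.09 (SE 0.07, edgeR adjusted p = 0.24).

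Lama2 (NCBI gene 16773) measured 0.17, 0.12 and 0.12 FPKM at day 0, 0.79, 0.73 and 0.62 FPKM at day 4, and 0.92, 0.89 and 0.85 FPKM at day 8. The 3 days did not overlap, and most of the difference lay between day 0 and day 4. The day 0 values rest on 35, 21 and 24 expected counts. Lama2 rose 5.42-fold in the early phase (log2 fold change 2.44, SE 0.17, edgeR adjusted p = 2.1e-09) and 6.93-fold over the whole process (log2 fold change 2.79, SE 0.17, edgeR adjusted p = 2.7e-10). Between day 4 and day 8 it was 1.28-fold higher (edgeR adjusted p = 0.032), which missed the threshold with DESeq2, library size alone and limma on log2(FPKM + 0.1), and without day 4 replicate 3, day 8 replicate 1 or day 8 replicate 2. On the log2(FPKM + 1) scale, which understates changes of genes this low, the early and whole differences were 0.59 and 0.73 and did not reach 2-fold.

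Lama5 (NCBI gene 16776) measured 0.79, 0.75 and 0.93 FPKM at day 0, 0.56, 0.46 and 0.43 FPKM at day 4, and 0.53, 0.48 and 0.50 FPKM at day 8. All day 0 samples lay above all later ones, and day 4 and day 8 overlapped. It was 1.63-fold lower at day 4 (log2 fold change -0.71, SE 0.13, edgeR adjusted p = 0.00013) and 1.52-fold lower at day 8 than at day 0 (edgeR adjusted p = 0.00049), with a late log2 fold change of 0.10 (SE 0.14, edgeR adjusted p = 0.58).

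Of the summed FPKM of the 3 α genes, Lama4 made up 98.1% ± 0.0933 (SD, n = 3), 97.7% ± 0.115 and 98.2% ± 0.143 on days 0, 4 and 8. The Lama2 share was 0.270% ± 0.0482, 1.38% ± 0.0783 and 1.17% ± 0.0925, and the Lama5 share was 1.63% ± 0.137, 0.936% ± 0.0574 and 0.663% ± 0.0554. The order of the minor chains thus turned between day 0 and day 4, from Lama5 above Lama2 to Lama2 above Lama5, in all samples. Each share differed without overlap between neighbouring days, at an exact two-sided permutation p = 0.1, the smallest that 3 against 3 samples allow. The Lama4 share of day 0 and day 8 overlapped (exact permutation p = 0.5).

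The β chain genes went opposite ways. Lamb1, which encodes the β1 chain of most laminins, was higher at each later day, while Lamb2, whose β2 chain marks the laminins of synapses, kidney filters and vessels, fell over the whole process. The share of Lamb1 among β transcripts was larger at each later day.

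Lamb1 (NCBI gene 16777) measured 73.97, 70.13 and 74.96 FPKM at day 0, 101.80, 96.50 and 99.59 FPKM at day 4, and 109.81, 116.72 and 121.75 FPKM at day 8. No sample of one day reached the range of another. The log2 fold change was 0.51 early (SE 0.05, edgeR adjusted p = 2.7e-07), 0.27 late (SE 0.05, edgeR adjusted p = 0.00052) and 0.78 over the whole process (SE 0.05, edgeR adjusted p = 1.4e-09), the last a 1.72-fold difference.

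Lamb2 (NCBI gene 16779) measured 53.13, 47.43 and 50.47 FPKM at day 0, 27.98, 24.71 and 22.49 FPKM at day 4, and 22.44, 20.88 and 21.60 FPKM at day 8. Every day 0 sample lay far above the later ones, and day 4 replicate 3 lay just above the highest day 8 sample. Lamb2 fell 2.15-fold over the whole process (log2 fold change -1.11, SE 0.07, edgeR adjusted p = 5.2e-10). At day 4 it was 1.92-fold lower than at day 0 (log2 fold change -0.94, SE 0.07, edgeR adjusted p = 3.8e-09), just short of the 2-fold threshold, which it passed at -1.03 without day 4 replicate 1 and at -1.01 with library size alone. The late difference was -0.17 (SE 0.07, edgeR adjusted p = 0.063).

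The Lamb1 to Lamb2 ratio, chosen like the other ratios below after the values were seen, was 1.39, 1.48 and 1.49 at day 0, 3.64, 3.91 and 4.43 at day 4, and 4.89, 5.59 and 5.64 at day 8. The ratios of the 3 days did not overlap (exact permutation p = 0.1, the smallest possible). Lamb1 made up 59.2% ± 0.874 (SD, n = 3), 79.9% ± 1.59 and 84.3% ± 1.07 of the summed FPKM of both genes. Their summed level overlapped between day 0 and day 4, at 123.4 ± 5.09 and 124.4 ± 4.72 FPKM (exact permutation p = 0.9), and was 137.7 ± 5.55 FPKM at day 8.

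Lamc1 (NCBI gene 226519), which encodes the γ1 chain shared by most laminins, had the smallest difference of the 10 genes over the whole process. It measured 63.25, 56.62 and 61.41 FPKM at day 0, 68.28, 62.99 and 59.87 FPKM at day 4, and 64.54, 70.73 and 70.01 FPKM at day 8. Day 4 overlapped with both other days, while every day 8 sample lay above every day 0 sample. The whole difference was 1.22-fold (log2 fold change 0.29, SE 0.06, edgeR adjusted p = 0.00050). The early difference, 0.14 (SE 0.06, edgeR adjusted p = 0.049), lay at the threshold and missed it under the other normalizations, and the late difference was 0.15 (SE 0.06, edgeR adjusted p = 0.060). Over all 6 chains the summed laminin FPKM was 234.3 ± 11.9 at day 0, 239.6 ± 12.7 at day 4 (exact permutation p = 0.6) and 282.2 ± 11.5 at day 8, when all 3 samples lay above those of the earlier days.

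**Figure D2:**
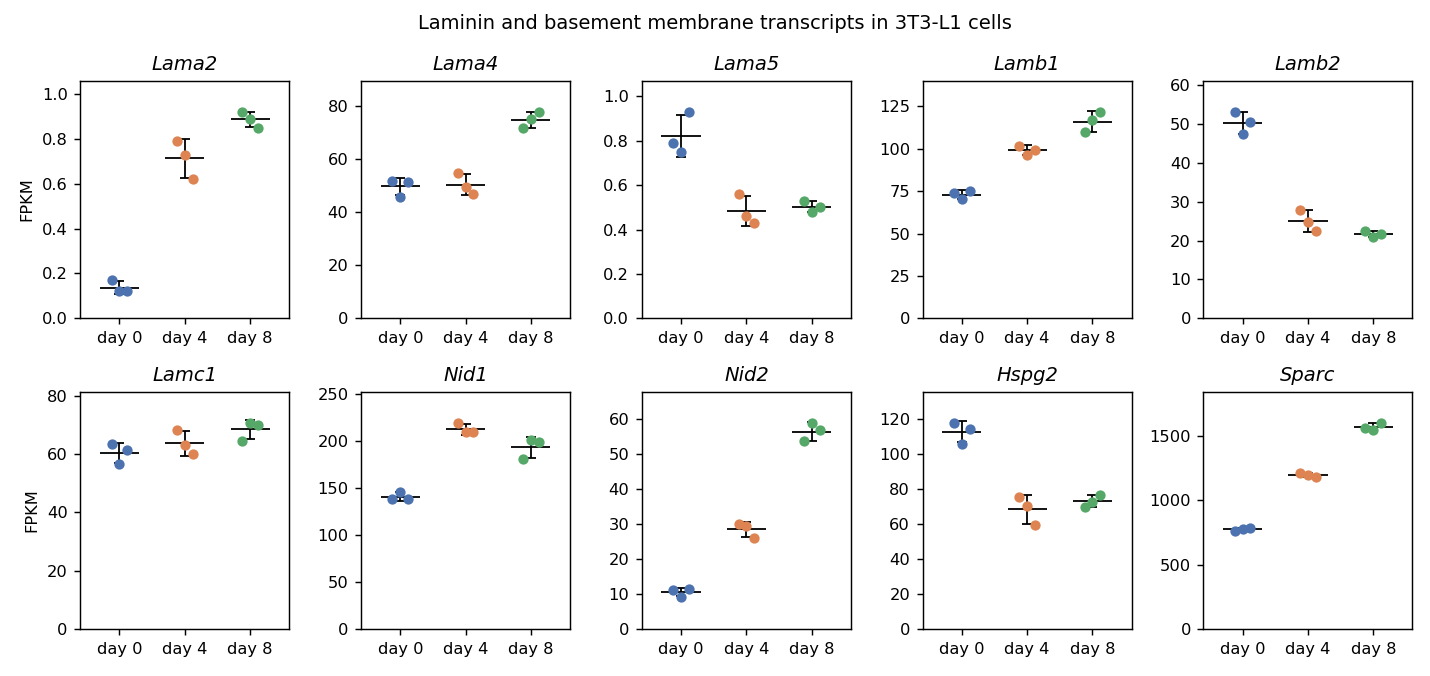
FPKM (vertical axis, from 0, with its own range in each panel) of the 10 genes in each of the 9 samples, with a horizontal line at the mean of the 3 replicates of a day and bars of ± SD. Lamb1, Nid2 and Sparc step upwards at both later days, Lamb2 and Hspg2 drop between day 0 and day 4, and Lamc1 stays between 56.62 and 70.73 FPKM.

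The nidogens, rod-like linkers that bind the laminin γ1 chain and type IV collagen, were both higher after induction but on different courses. Nid2 rose in all 3 comparisons, whereas Nid1 was higher at day 4 and did not increase further. Nid1 was the more abundant throughout.

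Nid2 (NCBI gene 18074) measured 11.02, 9.10 and 11.32 FPKM at day 0, 29.97, 29.54 and 25.98 FPKM at day 4, and 53.57, 58.94 and 56.72 FPKM at day 8. The days were widely separated. It rose 2.84-fold early (log2 fold change 1.51, SE 0.08, edgeR adjusted p = 6.3e-11), 2.04-fold late (log2 fold change 1.03, SE 0.07, edgeR adjusted p = 1.3e-08) and 5.81-fold over the whole process (log2 fold change 2.54, SE 0.08, edgeR adjusted p = 1.1e-13). The late rise lay at the 2-fold threshold and fell below it at 0.96 without day 4 replicate 3, at 1.00 without day 8 replicate 2 at 0.98 with library size alone, and at 0.96 and 0.98 with limma on log2(FPKM + 1) and log2(FPKM + 0.1), with the adjusted p under 0.05 each time. Of the 50-base stretches of Nid2 transcripts in the GENCODE annotation, 7.50% also occur on either strand in transcripts of another gene, Rtraf, the highest share among the 10 genes.

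Nid1 (NCBI gene 18073) measured 138.89, 146.34 and 138.10 FPKM at day 0, 219.87, 209.42 and 210.00 FPKM at day 4, and 180.76, 201.06 and 199.44 FPKM at day 8. All later samples lay above day 0, and those of day 8 lay below those of day 4. It was 1.58-fold higher at day 4 (log2 fold change 0.66, SE 0.05, edgeR adjusted p = 1.2e-08) and 1.48-fold higher at day 8 than at day 0 (log2 fold change 0.57, SE 0.05, edgeR adjusted p = 7.0e-08). The late difference was -0.09 (SE 0.05, edgeR adjusted p = 0.17).

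The Nid1 to Nid2 ratio was 12.6, 16.1 and 12.2 at day 0, 7.34, 7.09 and 8.08 at day 4, and 3.37, 3.41 and 3.52 at day 8. Nid2 made up 6.93% ± 0.936 (SD, n = 3) of the nidogen FPKM at day 0, 11.8% ± 0.700 at day 4 and 22.6% ± 0.372 at day 8, again without overlap (exact permutation p = 0.1, the smallest possible). The summed nidogen FPKM was 151.6 ± 3.34, 241.6 ± 7.30 and 250.2 ± 13.8, and its day 4 and day 8 values overlapped (exact permutation p = 0.4).

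Hspg2 (NCBI gene 15530), the core protein gene of perlecan, was lower at both later days. It measured 118.14, 106.18 and 114.52 FPKM at day 0, 75.59, 70.12 and 59.61 FPKM at day 4, and 70.07, 72.60 and 76.97 FPKM at day 8. Every day 0 sample stood above every later one, and day 4 and day 8 overlapped. The early log2 fold change was -0.66 (SE 0.08, edgeR adjusted p = 1.0e-06), a 1.58-fold difference, and the whole one was -0.51 (SE 0.08, edgeR adjusted p = 1.5e-05). Late it was 0.14 (SE 0.08, edgeR adjusted p = 0.14). The Hspg2 to Nid1 ratio went from 0.802 ± 0.0669 (SD, n = 3) at day 0 to 0.321 ± 0.0323 at day 4 and 0.378 ± 0.0149 at day 8, with no overlap between days (exact permutation p = 0.1, the smallest possible).

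Sparc (NCBI gene 20692) had the highest level of the 10 genes on every day. It measured 764.12, 774.36 and 786.43 FPKM at day 0, 1215.55, 1197.33 and 1186.41 FPKM at day 4, and 1560.71, 1551.03 and 1605.83 FPKM at day 8. Replicates lay close together and the days were clearly apart. Sparc rose 2.19-fold over the whole process (log2 fold change 1.13, SE 0.05, edgeR adjusted p = 2.2e-12). It was 1.62-fold higher early (log2 fold change 0.70, SE 0.05, edgeR adjusted p = 8.5e-10) and 1.35-fold higher late (log2 fold change 0.44, SE 0.04, edgeR adjusted p = 8.7e-07). Of its relatives, Fstl1, a secreted glycoprotein of the SPARC family, measured 414.0 ± 9.39 (SD, n = 3), 498.8 ± 51.8 and 426.6 ± 4.89 FPKM, within 2-fold in all 3 comparisons, as was Sparcl1 at 56.1, 93.3 and 71.6 FPKM.

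The order of the levels changed with the days. At day 0 it was Sparc, Nid1, Hspg2, Lamb1, Lamc1, Lamb2, Lama4, Nid2, Lama5 and Lama2, and only the neighbours Lamb2 and Lama4 overlapped, at 50.3 and 49.6 FPKM. At day 4 Lamb1 (99.3 FPKM) stood above Hspg2 (68.4 FPKM), which overlapped with Lamc1 (63.7 FPKM), and Nid2 (28.5 FPKM) overlapped with Lamb2 (25.1 FPKM). At day 8 Lama4, Hspg2 and Lamc1 came after Lamb1 at 74.7, 73.2 and 68.4 FPKM and overlapped as neighbours, Nid2 (56.4 FPKM) stood well above Lamb2 (21.6 FPKM), and Lama2 (0.887 FPKM) and Lama5 (0.503 FPKM) came last.

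**Figure D3:**
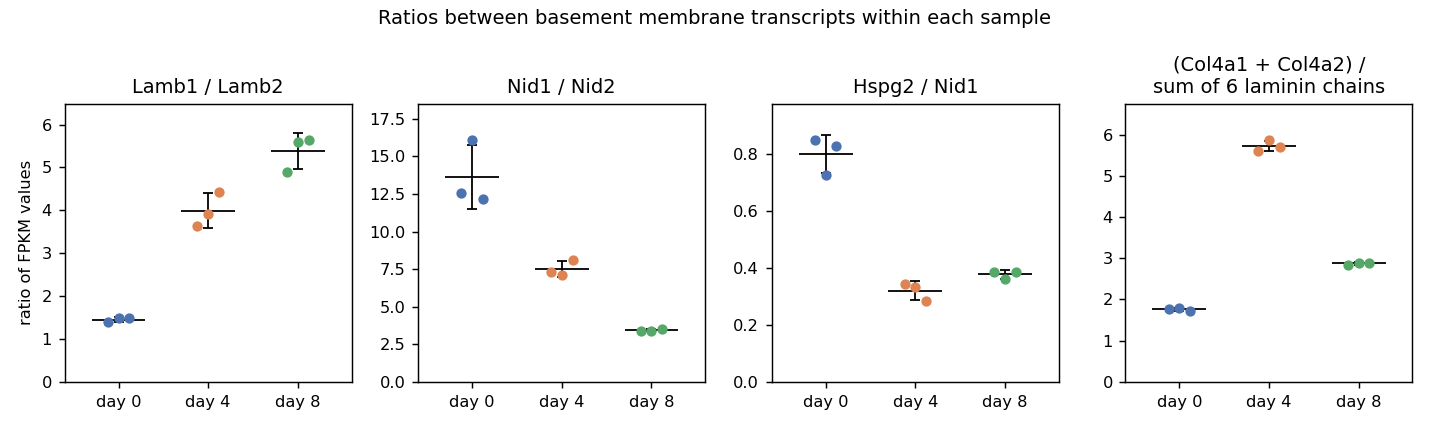
Ratios of FPKM values (vertical axis, from 0) within each of the 9 samples, with a horizontal line at the mean of the 3 replicates of a day and bars of ± SD. The Lamb1 to Lamb2 ratio goes up at each day, the Nid1 to Nid2 ratio goes down, and type IV collagen against laminin peaks at day 4 at 5.72.

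The replicates of day 4 differed together. All 10 genes were highest in day 4 replicate 1, and 8 of them were lowest in replicate 3, by FPKM. Hspg2 showed the widest gap of the abundant genes, with 1094.2, 1020.9 and 858.5 CPM after TMM scaling in replicates 1, 2 and 3. Fabp4 ran the other way, at 3314.4, 3978.5 and 4862.7 FPKM, as did the sum of the adipocyte markers, at 5817.0, 6859.2 and 8257.7 FPKM. The part of this difference between replicates in the values of the 10 genes was not tested.

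Other laminin chains were hardly expressed. Lama3 and Lamc3 did not exceed 0.05 FPKM in any sample, and Lama1 was searched for but not listed in any sample. Lamb3, the β3 chain gene of epithelial laminin, measured 0.44, 0.27 and 0.31 FPKM at day 0, 0.53, 0.56 and 0.79 FPKM at day 4, and 1.73, 2.17 and 2.04 FPKM at day 8, and rose 3.27-fold late (log2 fold change 1.71, SE 0.18, edgeR adjusted p = 8.5e-07). Of the 9 epithelial markers in the files the most abundant was the keratin gene Krt19, with 0.187 ± 0.0681 (SD, n = 3), 0.843 ± 0.294 and 10.4 ± 1.78 FPKM by day. The whole epithelial list summed to 0.557, 2.10 and 11.1 FPKM, most of it Krt19 at day 8, and its part in the Lamb3 result was not tested. The daily means of the other epithelial markers lay below 1 FPKM, with Krt18 at 0, 0.393 and 0.337 FPKM, Krt8 at 0.0467, 0.303 and 0.193 FPKM, Esrp1 at 0.103, 0.0267 and 0.02 FPKM, and the E-cadherin gene Cdh1 at 0.0267 FPKM or less.

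The main type IV collagen genes rose early, when the summed laminin level did not differ beyond its spread. Of the 8 collagen genes of basement membranes listed, 7 were tested, 4 rose and 1 fell early (9.77% and 7.98% of all genes), 1 rose and 1 fell late (4.24% and 2.81%), and 3 rose and 1 fell over the whole process (10.3% and 7.70%), with median log2 fold changes of 1.59, -0.38 and 1.04 beside 0.02, -0.01 and -0.02 for all genes. Col4a1, the α1 chain of the main network, measured 232.2 ± 7.17 (SD, n = 3) FPKM at day 0, 849.5 ± 31.6 at day 4 and 485.0 ± 25.0 at day 8. It rose 3.83-fold early (log2 fold change 1.94, SE 0.06, edgeR adjusted p = 5.0e-14) and was 1.70-fold lower again at day 8 than at day 4 (edgeR adjusted p = 1.5e-08). Its partner Col4a2 rose 3.02-fold early (log2 fold change 1.59, SE 0.06, edgeR adjusted p = 9.8e-13). The ratio of summed Col4a1 and Col4a2 to the summed laminin chains was therefore 1.76 ± 0.0343 at day 0, 5.72 ± 0.131 at day 4 and 2.87 ± 0.0261 at day 8, with no overlap (exact permutation p = 0.1, the smallest possible). Col15a1, a collagen that links basement membranes to the matrix around them, measured 0.55, 0.45 and 0.76 FPKM at day 0 and 17.00, 23.93 and 27.07 FPKM at day 8, a 41.5-fold rise (log2 fold change 5.37, SE 0.19, edgeR adjusted p = 4.2e-13). Col18a1, the precursor gene of endostatin, rose 2.24-fold over the whole process (log2 fold change 1.16, SE 0.06, edgeR adjusted p = 4.7e-11). The remaining calls were Col4a3 (a rise early, a fall late) and Col4a6 (falls early and over the whole process), both at 0.19 FPKM or less. Both limma fits lost all of these calls, and the late Col4a3 fall was also lost with DESeq2 and without day 4 replicate 1 or 2 or day 8 replicate 2 or 3.

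Among 20 other components listed, 13 were tested, and in the early phase 1 rose and 6 fell (9.77% and 7.98% of all genes), with a median log2 fold change of -0.94 beside 0.02 for all genes. In the late phase 3 rose and 0 fell (4.24% and 2.81% of all genes), and over the whole process 3 rose and 4 fell (10.3% and 7.70%). The median log2 fold changes of these phases were 0.49 and -0.16, beside -0.01 and -0.02 for all genes. Fibronectin (Fn1), a matrix protein of fibroblasts, measured 1259.33, 1019.89 and 1156.71 FPKM at day 0 and 217.72, 193.55 and 161.61 FPKM at day 4, a 5.77-fold fall (log2 fold change -2.53, SE 0.10, edgeR adjusted p = 2.0e-12), and 309.3 ± 17.5 (SD, n = 3) FPKM at day 8. Day 0 Fn1 thus exceeded Sparc, and both later days were far below it. Tgfbi, an adhesion protein gene, fell 4.31-fold early (edgeR adjusted p = 1.1e-14) and rose 2.73-fold late (edgeR adjusted p = 5.9e-12), and Fbln1, encoding fibulin-1, fell 2.89-fold early (edgeR adjusted p = 2.5e-12) and rose 2.45-fold late (edgeR adjusted p = 1.2e-10). Tinagl1, a laminin-associated glycoprotein gene, fell 4.31-fold over the whole process (log2 fold change -2.11, SE 0.08, edgeR adjusted p = 5.4e-13), and Agrn, which encodes the proteoglycan agrin, 2.41-fold (log2 fold change -1.27, SE 0.10, edgeR adjusted p = 1.2e-08). Smoc1, which encodes a SPARC-related calcium-binding protein, rose 15.2-fold from 0.377 ± 0.205 to 5.21 ± 0.534 FPKM (log2 fold change 3.92, SE 0.22, edgeR adjusted p = 1.2e-10). Its paralogue Smoc2 fell 2.33-fold from 0.877 FPKM (edgeR adjusted p = 0.0022). Hemicentin-1 (Hmcn1) rose 2.66-fold to 0.903 FPKM (edgeR adjusted p = 1.4e-06) and nephronectin (Npnt) 2.09-fold to 3.07 FPKM (edgeR adjusted p = 1.2e-05) over the whole process, the latter a call lost with library size alone, with both limma fits and without day 0 replicate 1. Fbln2, which encodes fibulin-2, a nidogen-binding protein, fell 2.01-fold early (log2 fold change -1.01, SE 0.07, edgeR adjusted p = 9.2e-10), a call lost without day 0 replicate 1 or day 4 replicate 3, and its level was 452.6, 212.7 and 371.7 FPKM by day.

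Among receptors for laminin and perlecan, the integrin subunits α6 and α7 rose and α3 fell. Of 15 listed, 13 were tested, of which 2 rose and 3 fell early (9.77% and 7.98% of all genes), 1 rose and 0 fell late (4.24% and 2.81%), and 3 rose and 1 fell over the whole process (10.3% and 7.70%). Itga7, the integrin α7 gene, measured 0.46, 0.32 and 0.35 FPKM at day 0, 2.99, 4.18 and 4.42 FPKM at day 4, and 5.65, 6.38 and 7.22 FPKM at day 8, an 18.2-fold rise (log2 fold change 4.19, SE 0.18, edgeR adjusted p = 6.0e-12). Itga6, the integrin α6 gene, measured 9.27 ± 0.556 (SD, n = 3), 31.1 ± 2.16 and 36.8 ± 3.89 FPKM and rose 4.28-fold (log2 fold change 2.10, SE 0.08, edgeR adjusted p = 8.5e-13). Itga3, the integrin α3 gene, fell 5.63-fold from 3.89 to 0.650 FPKM (log2 fold change -2.49, SE 0.13, edgeR adjusted p = 6.7e-11). Cd151, a tetraspanin that associates with laminin-binding integrins, rose 2.18-fold (edgeR adjusted p = 1.5e-10). Itgb1, the shared β1 subunit gene, was 1.34-fold lower at day 8 than at day 0 (edgeR adjusted p = 3.3e-06). Sdc3, which encodes the heparan sulphate proteoglycan syndecan-3, fell 3.08-fold early (edgeR adjusted p = 4.2e-11) and rose 2.96-fold late (edgeR adjusted p = 3.5e-10), and Itgb4 (integrin β4) fell 2.18-fold early from a mean of 0.443 FPKM (edgeR adjusted p = 0.0026), a call that both limma fits lost. The most abundant gene of the list was Rpsa, a ribosomal protein also known as the laminin receptor, at 1043.5 ± 35.7, 881.3 ± 40.9 and 773.6 ± 16.0 FPKM.

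**Figure D4:**
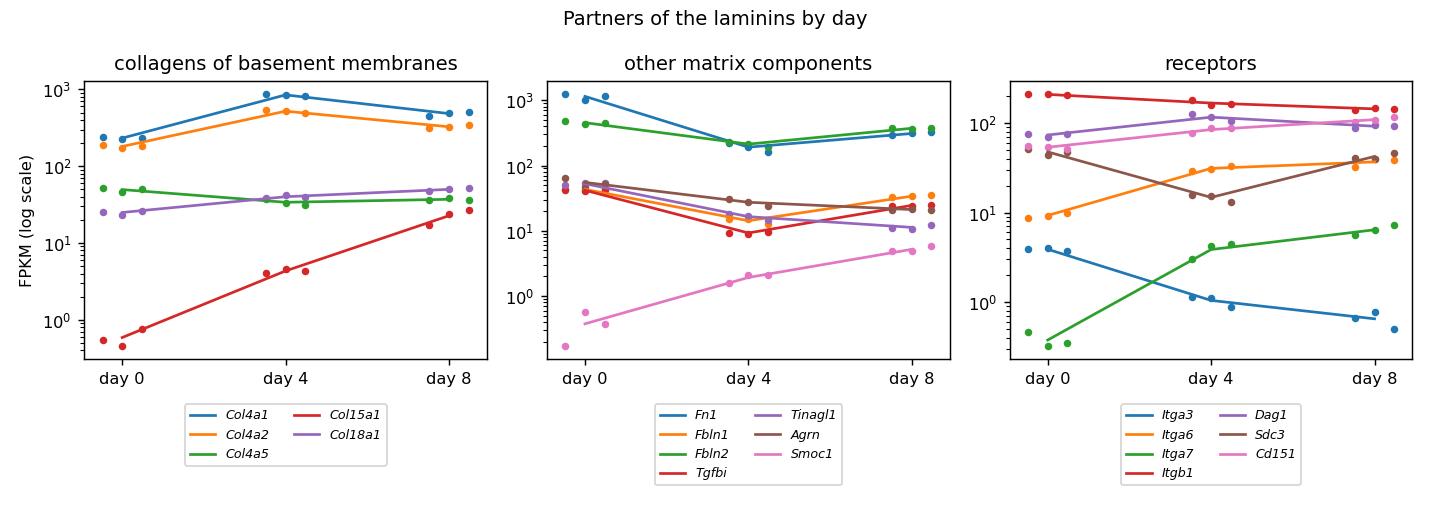
FPKM on a log scale (vertical axis) of genes for collagens, other matrix components and receptors, with a point for each of the 9 samples and lines through the mean of the 3 replicates of a day. Col15a1, Smoc1 and Itga7 go up at both later days, Itga3 goes down, and Fn1, Tgfbi and Sdc3 are lowest at day 4.

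Dystroglycan, the receptor that binds laminin α chains through its sugar chains, was expressed throughout, with Dag1 at 73.5 ± 3.38 (SD, n = 3), 116.2 ± 11.5 and 92.0 ± 4.21 FPKM, 1.65-fold higher at day 4 than at day 0 (edgeR adjusted p = 8.8e-08). Of its 11 listed partners in the dystrophin-linked complex, 8 were tested. Over the whole process 0 of the 8 rose and 1 fell with edgeR, beside 10.3% and 7.70% of all genes. DESeq2 and both limma fits gave the same counts. At an unadjusted p under 0.05 in edgeR, 3 of the 8 were higher and 4 lower, beside 35.8% and 37.2% of all genes. Dtna, the dystrobrevin α gene, fell 2.77-fold late (edgeR adjusted p = 6.6e-07) and 5.23-fold over the whole process (edgeR adjusted p = 2.1e-10). Dystrophin itself (Dmd) did not exceed 0.07 FPKM, and Sgce, the ε-sarcoglycan gene, was the most abundant at 48.4, 48.2 and 57.0 FPKM. The 11 genes that glycosylate dystroglycan, all tested, held 0 calls in any comparison with edgeR, DESeq2 or limma. Of all genes, 9.77% rose and 7.98% fell early with edgeR, 4.24% and 2.81% late, and 10.3% and 7.70% over the whole process. At an unadjusted p under 0.05 in edgeR, 7 of the 11 were higher and 2 lower early (36.7% and 34.9% of all genes), 1 and 1 late (25.8% and 26.3%), and 6 and 3 over the whole process (35.8% and 37.2%). The most abundant of them was B4gat1, at 17.8, 26.1 and 23.7 FPKM.

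Heparan sulphate chains give perlecan, agrin and syndecans their binding properties. Of the 13 tested genes for chain synthesis, 0 rose and 1 fell early (9.77% and 7.98% of all genes), and 1 rose and 0 fell late (4.24% and 2.81%). Over the whole process 1 rose and 1 fell (10.3% and 7.70%). These small counts were not tested against the shares of all genes. The 6-O-sulphotransferase gene Hs6st2 measured 6.55 ± 0.377 (SD, n = 3), 1.49 ± 0.135 and 3.46 ± 0.193 FPKM, falling 4.23-fold early (edgeR adjusted p = 5.6e-12) and rising 2.41-fold late (edgeR adjusted p = 2.2e-08). Glce, the epimerase gene, fell 2.06-fold over the whole process (edgeR adjusted p = 2.2e-09), and Extl3, which starts the chains, rose 2.13-fold (edgeR adjusted p = 8.4e-12), a call that both limma fits lost at 0.93 and 0.97. The chain polymerase gene Ext1 had the highest level averaged over the days, at 58.4, 82.9 and 74.0 FPKM, although its partner Ext2 stood above it at day 0, at 67.5 FPKM.

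The genes most like Lama2 and Lamb2, the genes among the 10 with the largest rise and the largest fall, were found by Pearson's correlation of log2 CPM over the 9 samples among 11467 genes. These samples fall into 3 days, so that the coefficients mainly describe the steps between days and carry no test. For Lama2 they were Gpam (r = 0.9975), Tspan9 (0.9974), Hipk2 (0.9963), Sspn (0.996) and Sort1 (0.9951). Gpam encodes an enzyme of triglyceride synthesis, and Sspn encodes sarcospan of the dystrophin-linked complex. For Lamb2 they included Asah1 (r = 0.9986), Glce (0.9964), Dlg5 (0.9963) and Slc36a1 (0.9962). Asah1 encodes the lysosomal acid ceramidase.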

How the data were processed

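The RNA-seq series comprises 9 samples of 3T3-L1 cells, grouped by the day and replicate number in their titles. Reads of low quality were discarded by the authors, who aligned the remainder with HISAT/Bowtie2 and quantified genes with RSEM. The submitters' processing notes also name CASAVA 1.4, the library kit in the labels differs from the Illumina platform in the methods, and the genome build is not given in the sources used here. The deposited expected counts are RSEM's unnormalized estimated counts per gene, of which 29.8% are not whole. The authors' FPKM values are relative to gene length and depth, and means and SDs were taken from them as they stand. Depth was 18216114 to 20452144 expected counts per sample.

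Expected counts were rounded and fitted in R 4.3.3 with edgeR 4.0.16 (filterByExpr by day, TMM factors, quasi-likelihood F-test, 1 coefficient per day, all 9 samples). The Benjamini-Hochberg adjustment ran over all 13154 genes tested, and a call needed an adjusted p under 0.05 and an absolute log2 fold change above 1. The standard error is the log2 fold change divided by the square root of F. Shares and ratios of FPKM were compared by two-sided exact permutation tests. Gene IDs matched RefSeq for 19040 of 19094 genes, and 26 symbols changed to dates were restored. RefSeq promoters were searched on both strands, and 50-base stretches were compared over GENCODE vM21 transcripts. All 10 genes, the called genes of the other lists (at most the 4 largest each way and comparison), each list's most abundant gene and the 5 genes most like the extremes (log2 CPM with a prior count of 2, average at least 1) are named. Fbln2, Ext2, Sparcl1, Itgb1, Dag1, Dmd, the untested laminin chains and single marker genes were named after their values were seen. Some genes covered by the rule are not reported here. The genes and lists were chosen with earlier results of these data known.

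Alternatives were DESeq2's size factors, upper-quartile factors, library size alone, DESeq2 1.42.0 (Wald test), the exact test in edgeR, limma 3.58.1 on log2(FPKM + 1) and log2(FPKM + 0.1), no filter, at least 10 counts in every sample, separate fits per pair of days, a replicate block, each sample left out and, for levels, expected counts divided by gene length. The fits were tested on simulated data.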

Additional observations from a re-analysis of the deposited data

How the results depend on the processing

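None of the 600 alternative log2 fold changes of the 10 genes changed sign, and 590 kept their side of the call threshold. With edgeR 2 genes rose and 0 fell early, and 1 rose late. Early, limma on log2(FPKM + 1) gave 1 rise. Library size alone and limma on log2(FPKM + 0.1) each gave 1 early fall, Lamb2. Leaving samples out gave 0 to 1 early falls, the 1 being Lamb2 without day 4 replicate 1. Late, library size alone and both limma fits gave 0 rises. Left-out samples gave 0 to 1 late rises, Nid2 being lost without day 4 replicate 3 or day 8 replicate 2. By adjusted p alone 0 of the 10 were lower late, but 2 with library size alone, 1 without the filter, and 0 to 1 when samples were left out (Lamb2, without day 4 replicate 3).

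Of all genes, 1285 rose and 1050 fell early, against 708 and 564 with limma on log2(FPKM + 1), and 831 rose where at least 10 counts were asked of every sample. Late, 558 rose and 370 fell, against 224 and 136 with that limma fit and 310 and 173 with the count minimum. Over the whole process 1356 rose and 1013 fell, against 753 and 528 with that limma fit. The count minimum tests fewer genes, and the pseudocount of 1 compresses low genes.

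Among the other laminin chains, collagens and components, 7 fell early and 4 to 7 did when samples were left out, the 4 without day 4 replicate 3. The single late fall, Col4a3, was lost with DESeq2, both limma fits and the count minimum, each giving 0, and left-out samples gave 0 to 1. Over the whole process 7 rose and 5 fell, against 4 and 3 with limma on log2(FPKM + 1). That fit also lost Lamb3, Dtna and Hs6st2 late and Col18a1, Hmcn1, Npnt, Smoc2, Col4a6 and Extl3 over the whole process, and both limma fits lost Itgb4, Smoc2, Col4a3 and Col4a6 early.

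Same-numbered samples of different days correlated at -0.0348 to 0.075 (mean 0.0307) in their deviations from the day means. Different numbers gave -0.1 to 0.0628 (mean -0.0154), and 4 of 9 samples correlated best with their own number on both other days. Whether the replicate numbers pair the samples weakly was not tested. With the replicate block 1 of the 10 genes (Lamb2) instead of 0 was lower late by adjusted p alone. Early, 5 instead of 6 of them were higher by adjusted p alone, without Lamc1. Among the other laminin chains, collagens and components 6 instead of 7 fell early with the block, without Smoc2.

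Library size alone moved the median log2 fold change of all genes to -0.129 over the whole process (-0.018 with TMM). Except where stated above, the cause was not tested. Counts of 21 to 35 at day 0 limit the precision of Lama2.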
